A study of Homo sapiens with 2 samples.

Results

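The centromere, kinetochore and spindle checkpoint genes described here are 40 named genes of the machinery that ties chromosomes to the spindle, out of 33538 genes in the count matrices. They were taken from a list of names by role, set with earlier results of these data known, and each was present once in the matrices of both lines. They fall into 6 role groups, namely 4 genes of centromere chromatin, 13 of the inner kinetochore, 8 of the outer kinetochore, 3 of the Ska complex, 8 of the corona and checkpoint, and 4 of the chromosomal passenger complex.

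Single cells of Ewing sarcoma lines, cultures derived from a bone and soft tissue cancer driven by an EWSR1 fusion, were profiled by droplet RNA sequencing, in which each captured molecule carries a unique molecular identifier (UMI). CHLA9 was kept in IMDM with 20% fetal bovine serum and sequenced on HiSeq and NovaSeq instruments, and TC71 was kept in RPMI with 10% serum and sequenced on HiSeq alone. There was 1 library of each line, so line, medium and sequencing cannot be told apart, and the differences between the lines have no replicate to check them by. The remaining cell line and the patient-derived xenografts were not analysed here.

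The kinetochore is built on centromeric nucleosomes that hold the histone variant CENP-A. An inner layer of proteins stays at the centromere through most of the cell cycle, while the outer layer that grips microtubules, the fibrous corona and the checkpoint proteins that delay anaphase assemble as cells enter mitosis. Many genes of this machinery are repressed in resting cells through the DREAM complex and are transcribed most strongly in G2 and mitosis, and proliferating tumor lines such as Ewing sarcoma express them at high levels.

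The library of CHLA9 held 178489774 UMIs over 5077 barcodes and that of TC71 held 75408445 over 8468. Cells were kept from 5000 UMIs and 2000 genes upward, if mitochondrial (MT-) genes made up no more than 15% of the UMIs. This left 4524 cells with 174975302 UMIs and a median of 34656 UMIs per cell in CHLA9, and 1729 cells with 58355173 UMIs and a median of 33370 in TC71. The libraries shared 16 barcode sequences, of which 3 belonged to kept cells of both. Doublets were not removed. Levels are UMIs summed over the kept cells scaled to a total of 1000000 (CPM), with exact 95% Poisson intervals, and ratios have exact binomial intervals. All intervals cover counting error only. Each captured 3′ end counts once, so CPM were not divided by gene length, although capture can differ between genes.

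The markers fixed for the lines were present. All 7 Ewing sarcoma markers had UMIs in each line, summing to 4166 CPM in CHLA9 beside 2454 CPM in TC71, and CCND1 was the most abundant of them with 2510.5 and 1451 CPM. The sum was carried by CCND1 and CD99, while NKX2-2 (9.89 and 34.6 CPM), NR0B1 (48.1 and 122 CPM) and STEAP1 (73.2 and 239 CPM) were higher in TC71. Of 12 markers of blood, endothelial, epithelial, stromal, muscle and liver cells, 9 had a UMI in CHLA9 and 8 in TC71, with summed levels of 76.0 and 17.6 CPM. The most abundant was the collagen gene COL1A1 with 56.0 and 10.2 CPM, while CD3E, VWF and KRT5 were at 0 in both lines. Markers of the same cell types were not all at 0, with PTPRC at 9 and 5 UMIs, CD68 at 216 and 108, EPCAM at 8 and 73 and PECAM1 at 2 UMIs in CHLA9 and 0 in TC71. Barcodes under 5000 UMIs numbered 277 in CHLA9 and 5869 in TC71. The members summed to 3062 CPM in these barcodes of CHLA9 and to 4649 CPM in its kept cells, against 3377 and 3728 CPM in TC71. Free RNA in the droplets and its part in the results below were not tested.

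All 40 members were among the 12932 genes with a mean of at least 1 CPM over the lines. A gene counted as higher in a line where its CPM was at least 1.5-fold higher and the interval of the ratio left out 1. By this rule 7 members were higher in CHLA9, where 32.4% of all tested genes were, and 4 were higher in TC71, where 19.2% of all tested genes were. The median log2 ratio of CHLA9 over TC71 was 0.28 over the members and 0.21 over all tested genes. Those higher in CHLA9 were SPC24, PMF1, CENPF, AURKB, CENPO, CENPC and CENPM, and those higher in TC71 were CENPQ, CENPN, CENPW and MIS18A, so that inner kinetochore genes lay on both sides.

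**Figure D1:**
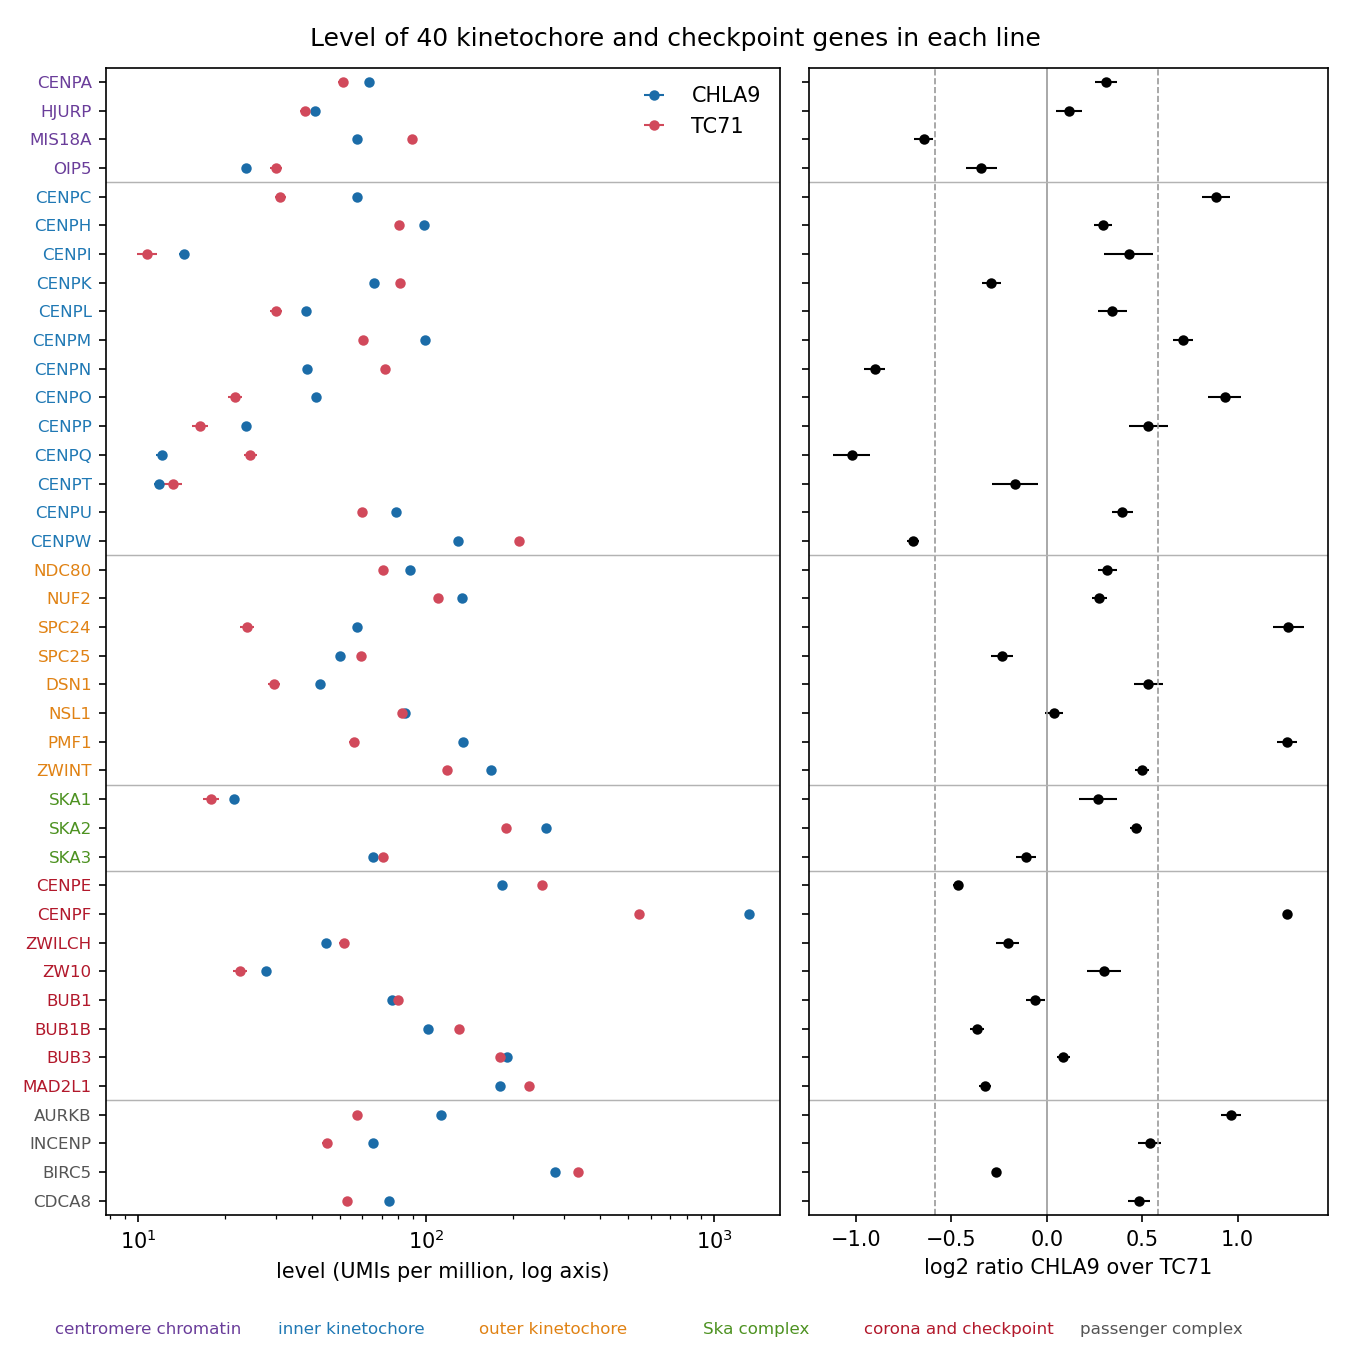
Level of each of the 40 genes in CHLA9 (blue) and TC71 (red) in CPM on a log axis (left), and the log2 ratio of CHLA9 over TC71 (right), by role group. Bars are 95% counting intervals and dashed lines mark 1.5-fold; SPC24, PMF1 and CENPF lie farthest to the right, near 1.26, and CENPQ farthest to the left, at -1.02.

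To follow the genes through the cycle, cells were placed on a cycle angle by scores of 40 replication, 25 G2 and 25 mitosis genes, none of which is a member. Cells were thinned to 10000 UMIs for the scores, which left out 14 shallower kept cells of CHLA9 and 59 of TC71, while all levels come from counts at full depth. Cells below the mean of their line in both the replication score and the joint G2 and mitosis score are called low-cycle cells, 956 in CHLA9 and 275 in TC71. Cells at an angle of 45 to 180 degrees, with the G2 and mitosis score raised above the replication score, are called late-cycle cells, 1634 and 640. Scores were set relative to each line's own cells, so the shares of cells do not compare the lines. The median was 29178.5 UMIs in low-cycle and 40955.5 in late-cycle cells of CHLA9, against 30944 and 37792 in TC71.

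Late-cycle cells were then set against low-cycle cells. Summed over all 40, the members made up 2488 CPM in low-cycle and 6850 CPM in late-cycle cells of CHLA9, and 2918 and 4785 CPM in TC71. CENPF alone supplied 591 and 2279.5 CPM of these sums in CHLA9, and 321 and 857 CPM in TC71. At least 1.5-fold higher levels in late-cycle cells, beyond counting error, were found for 30 members in CHLA9, where 6.25% of all tested genes passed, and for 16 in TC71, where 5.88% passed. The 16 of TC71 were all among the 30 of CHLA9, and 2.27% of all tested genes passed in both lines. No member was lower in late-cycle cells by the same rule, as were 468 of the 12932 tested genes in CHLA9 and 151 in TC71. Those are small shares, so the absence of lower genes among 40 members says little. The median log2 ratio of late-cycle over low-cycle cells was 1.18 over the members of CHLA9 and 0.37 over those of TC71, beside 0.02 and 0.11 over all tested genes.

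The ratio was larger in CHLA9 than in TC71 for 39 of the 40 members, CENPC being the exception, and for 4952 of the 12932 tested genes. It was also larger in CHLA9 for 25 of the 25 G2 genes and 24 of the 25 mitosis genes that placed the cells, with medians of 2.54 and 2.49 in CHLA9 and 1.297 and 1.52 in TC71. The lower contrast of TC71 was therefore shared by the G2 and mitosis genes that help to define the angle. Of the 40 replication genes that also define it, 26 had a larger ratio in CHLA9, with medians of -0.02 in CHLA9 and -0.22 in TC71.

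**Figure D2:**
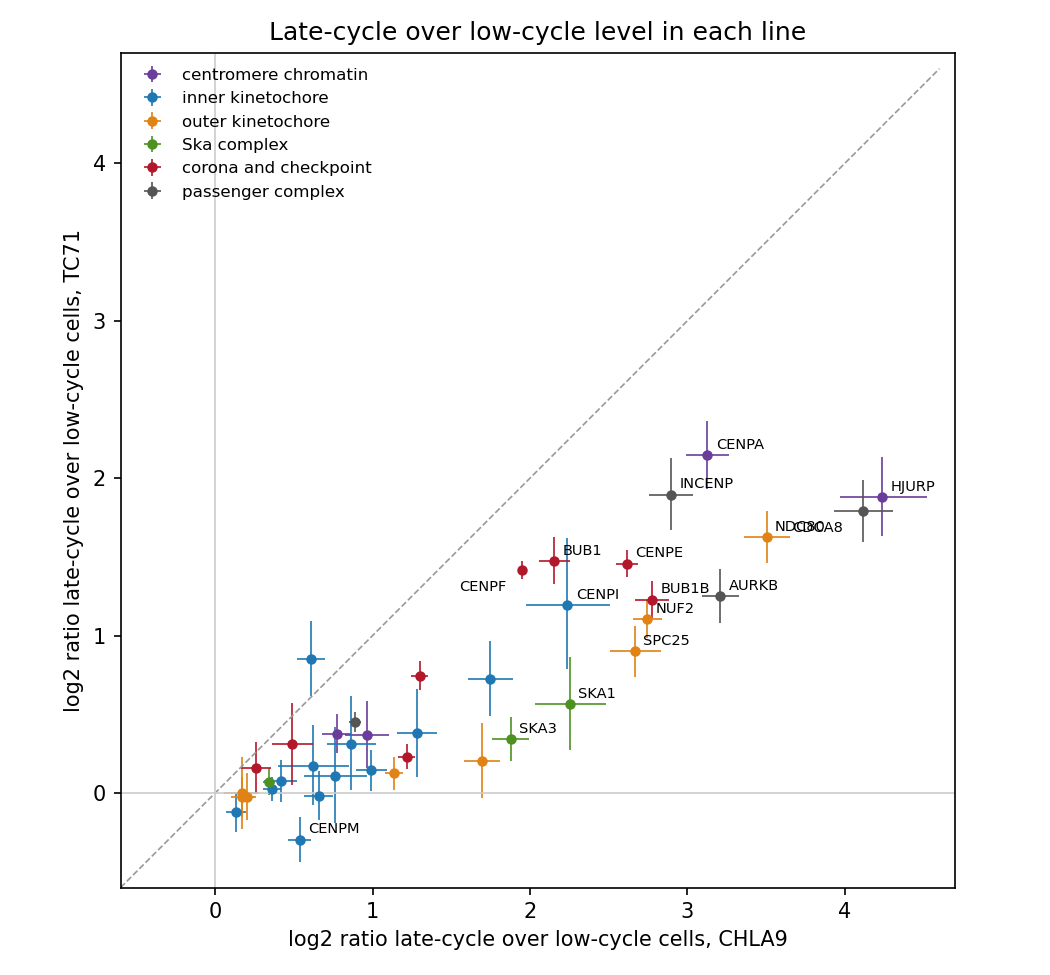
Log2 ratio of late-cycle over low-cycle cells in CHLA9 (horizontal) and TC71 (vertical) for the 40 genes, coloured by role group, with 95% counting intervals and a dashed line of equal ratios. All points but CENPC lie under the line, and HJURP and CDCA8 lie farthest right, at 4.24 and 4.12.

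Split into 20 bins of equal cell number along the angle, the summed members were lowest in the 3rd bin of CHLA9 (2164 CPM) and highest in the 16th (8024 CPM). In TC71 they ran from 2652 CPM in the 4th bin to 5266 CPM in the 15th. CENPF alone held 2841 CPM in the 16th bin of CHLA9 and 1041 CPM in the 15th of TC71. The highest bin of a member held a median of 3.71 times the lowest in CHLA9 and 1.93 times in TC71, beside 1.67 and 1.999 over all tested genes. Counting noise alone raises this quantity where UMIs are few, and bins of TC71 hold 83 or 84 cells against 225 or 226 in CHLA9. A ratio of at least 3 was reached by 27 of 40 members in CHLA9 and by 13 in TC71, beside 2318 and 3557 of the 12932 tested genes. In TC71 this share was near that of all tested genes, so by this measure its members did not stand out.

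**Figure D3:**
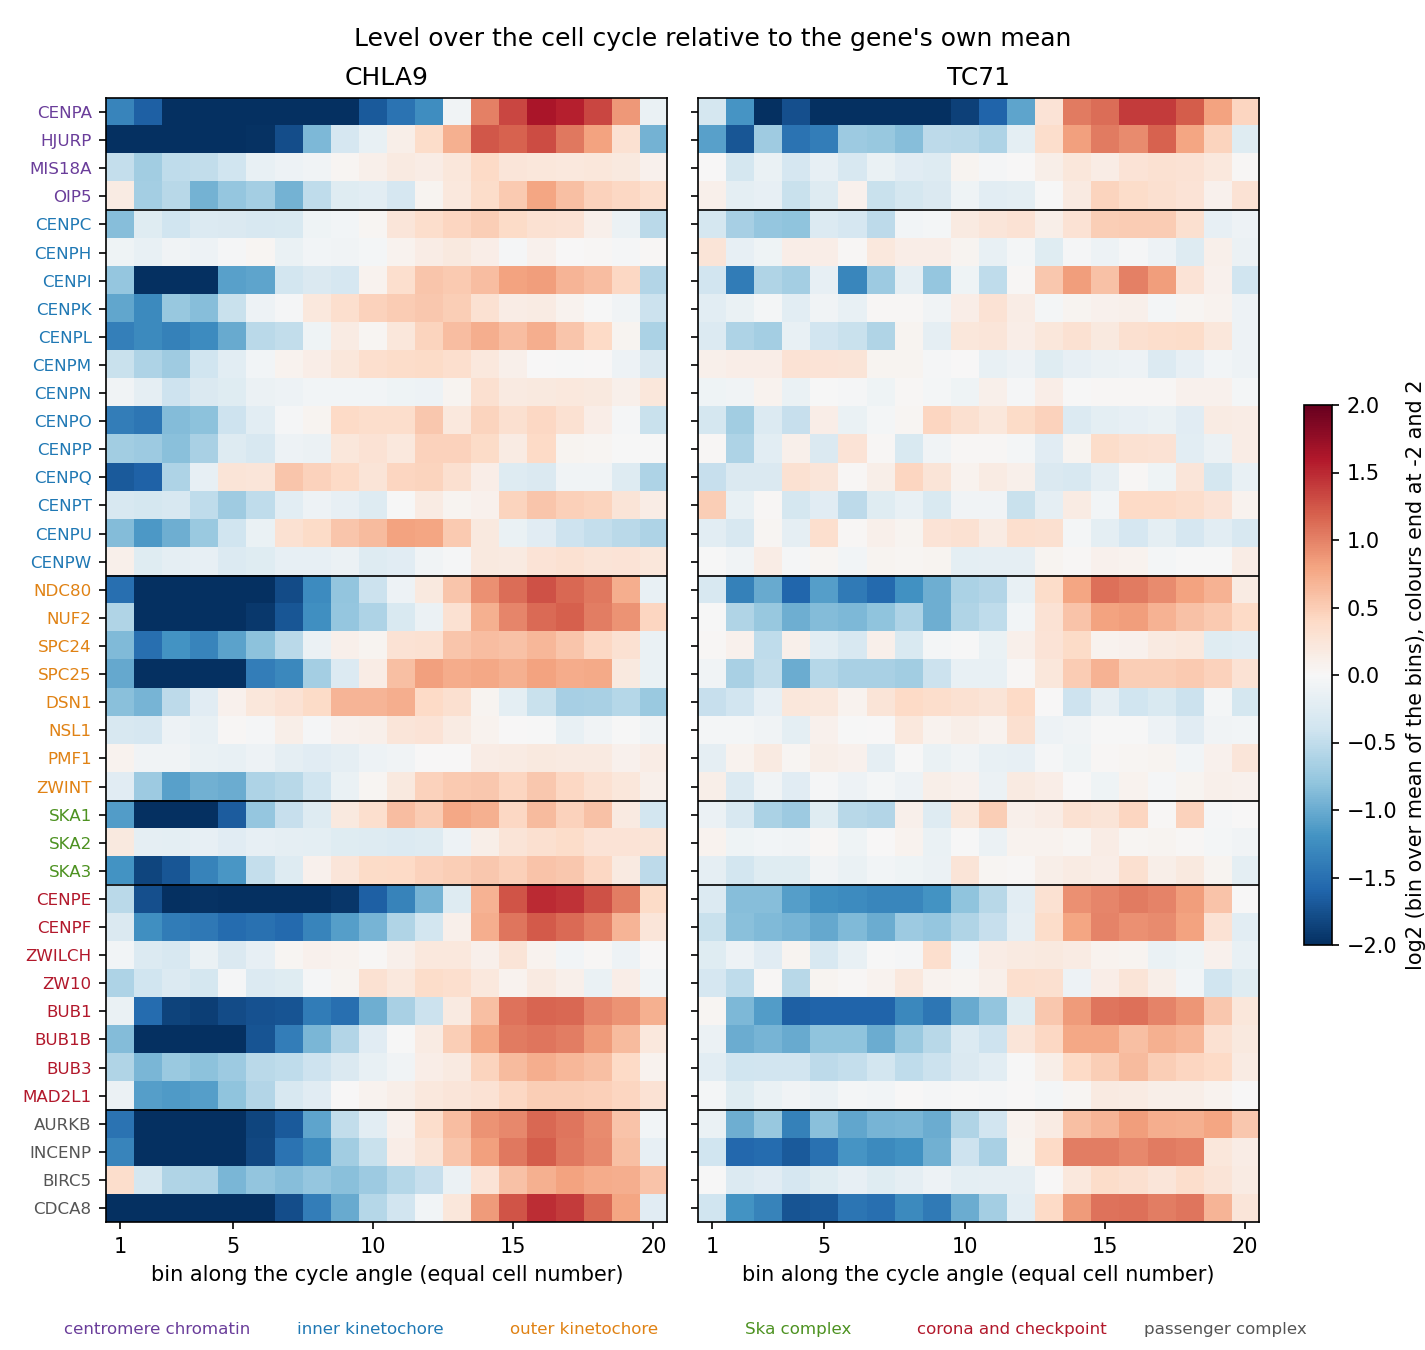
Level of the 40 genes in 20 bins along the cycle angle, as the log2 ratio to the mean of the gene's own bins (colour, limited to -2 and 2), for CHLA9 (left) and TC71 (right). Bins run from low-cycle over replication to late-cycle cells; most genes are highest at bins 14 to 18 in both lines, while CENPU, CENPQ and DSN1 are highest earlier.

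Promoters of the members were read from RefSeq on GRCh38.p14, as 300 bases from 250 before to 50 after each annotated start, for 34 of the 40 genes. CENPH, CENPL, CENPM, MIS18A, BUB3 and BIRC5 have no entry in the table. The cell cycle genes homology region (CHR, searched as TTTGAA or TTCGAA) is the element bound by DREAM and by MuvB with MYBL2, and the CCAAT box is bound by NF-Y. E2F sites were searched as TTTCCCGC, TTTCGCGC, TTTGCCGC or TTTGGCGC, and all motifs on both strands. A CHR match was present in 20 of the 34 genes (58.8%) and in 19.5% of all 27305 genes with a promoter. CCAAT was present in 23 of the 34 (67.6%) and in 39.7% of all genes, and an E2F match in 3 of the 34 (8.82%) and in 3.99% of all. The 27305 genes were not limited to those tested in these lines, so the shares also set expressed genes beside all genes.

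By role, all 3 matched centromere chromatin genes had a CHR match, as did 4 of 10 inner kinetochore genes, 4 of 8 outer kinetochore genes, 2 of 3 Ska genes, 5 of 7 corona and checkpoint genes and 2 of 3 passenger genes. The highest bin over the lowest had a median of 7.39 in CHLA9 among the 20 genes with a match and of 3.34 among the 14 without, and of 2.85 and 1.83 in TC71. The ranges overlapped, from 1.49 to 39.4 with a match and from 1.34 to 17.4 without in CHLA9. AURKB, CENPE and CENPI had no match and still exceeded a ratio of 4 in each line. A match is a description of these letters in this window.

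**Figure D4:**
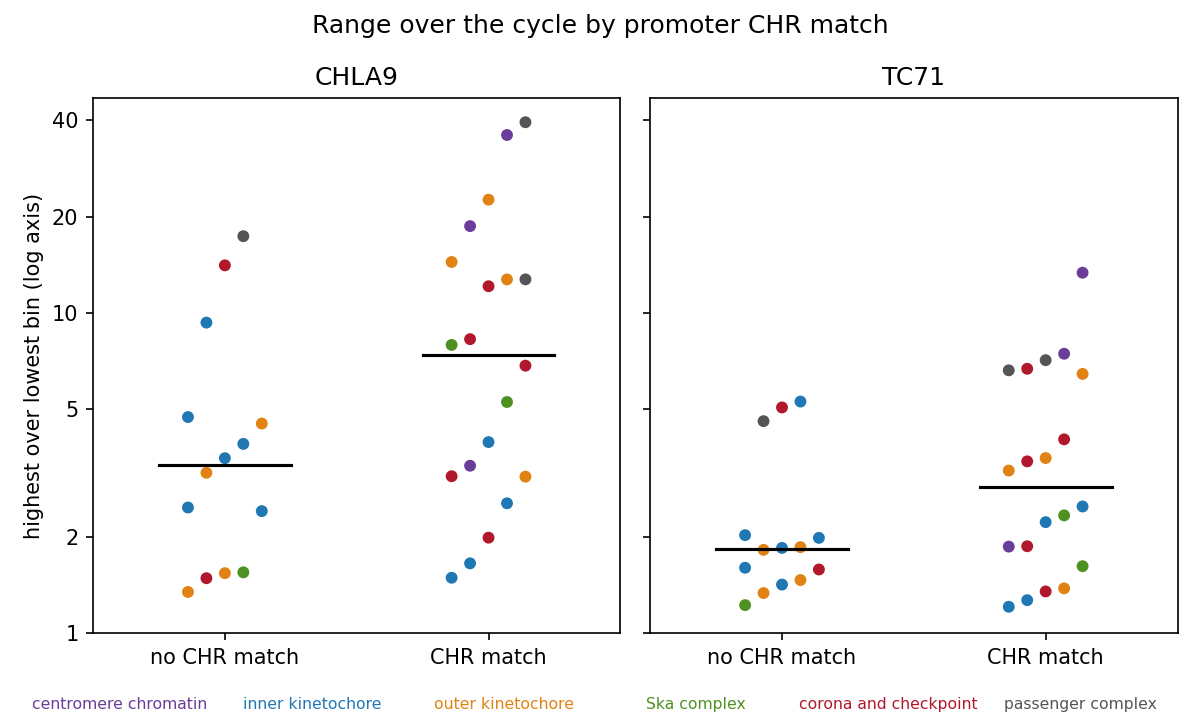
Highest over lowest bin along the cycle (log axis) for the 14 genes without and the 20 genes with a CHR match in the promoter, in CHLA9 (left) and TC71 (right). Points are genes coloured by role group and bars are medians, 3.34 and 7.39 in CHLA9 and 1.83 and 2.85 in TC71.

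The promoters of 6 genes with a CHR match near the start that were higher in late-cycle cells of CHLA9 are shown first, followed by 3 without a CHR match whose log2 late-cycle ratio was at most 0.66 in either line, to show where the matches lie. They were chosen by match and by ratio after the values were seen, so the contrast between the sets was fixed by the choice. CENPU passed in CHLA9, and among genes not shown CENPW, CENPN and ZW10 have a match and did not pass in either line, while AURKB, CENPE and CENPI passed in both without a match. Each runs 5′ to 3′ on the gene's strand from 90 bases before the RefSeq start and ends at most 10 bases after it. Capitals mark matches to CHR and to the CCAAT box (ATTGG where it lies on the other strand); in CDCA8 a CHR match and a CCAAT match overlap by 1 base. The stretches lie at chr1:37692426-37692510 (+) for CDCA8, chr2:26785966-26786056 (+) for CENPA, chr2:168890421-168890520 (-) for SPC25, chr11:62123921-62124020 (+) for INCENP, chr15:40160979-40161052 (+) for BUB1B, chr13:21176543-21176642 (-) for SKA3, chr4:184734101-184734186 (-) for CENPU, chr20:36773789-36773853 (-) for DSN1 and chr1:156212917-156213011 (+) for PMF1.
CDCA8: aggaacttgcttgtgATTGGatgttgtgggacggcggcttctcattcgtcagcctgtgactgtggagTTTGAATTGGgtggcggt
CENPA: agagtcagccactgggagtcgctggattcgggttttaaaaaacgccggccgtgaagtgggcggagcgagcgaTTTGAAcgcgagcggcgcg
SPC25: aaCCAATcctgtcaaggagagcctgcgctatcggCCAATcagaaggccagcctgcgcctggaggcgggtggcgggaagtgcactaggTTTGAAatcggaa
INCENP: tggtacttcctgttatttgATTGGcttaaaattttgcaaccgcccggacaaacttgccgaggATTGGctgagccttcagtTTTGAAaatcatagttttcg
BUB1B: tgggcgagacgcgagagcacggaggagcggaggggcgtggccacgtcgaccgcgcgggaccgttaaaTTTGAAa
SKA3: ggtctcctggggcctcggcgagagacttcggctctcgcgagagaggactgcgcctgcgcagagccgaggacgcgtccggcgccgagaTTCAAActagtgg
CENPU: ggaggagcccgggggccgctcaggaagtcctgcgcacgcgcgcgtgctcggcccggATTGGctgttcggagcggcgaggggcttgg
DSN1: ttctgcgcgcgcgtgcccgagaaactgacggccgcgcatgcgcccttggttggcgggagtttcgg
PMF1: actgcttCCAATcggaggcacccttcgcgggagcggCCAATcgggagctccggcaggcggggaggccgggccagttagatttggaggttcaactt
The first 6 carry a CHR match that begins within 25 bases before the start. Of CHR and CCAAT, CENPU and PMF1 have only CCAAT matches and DSN1 has neither in the stretch shown. E2F matches are not marked, and the members with one in the searched promoter were CENPA, OIP5 and CENPU.

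The 4 genes of centromere chromatin set the site of the kinetochore. CENPA, the centromeric histone H3 variant, had 63.5 CPM (62.3 to 64.7) in CHLA9 and 51.2 CPM (49.4 to 53.1) in TC71. Its level went from 14.9 CPM in low-cycle to 129.9 CPM in late-cycle cells of CHLA9 and from 22.7 to 100.5 CPM in TC71, log2 ratios of 3.13 (2.99 to 3.27) and 2.15 (1.93 to 2.36). This was the highest late-cycle ratio of all members in TC71. Part of CENPA overlaps SLC35F6 on the same strand in the annotation, so the counts of these genes could be mixed.

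HJURP, the chaperone that deposits CENP-A, lies at chr2:233833416-233854566 and had 41.2 and 38.0 CPM in the lines. It had 3.70 CPM in low-cycle and 69.8 CPM in late-cycle cells of CHLA9, a log2 ratio of 4.24 (3.97 to 4.52), the largest of all members there. In TC71 it had 16.7 and 61.2 CPM, a log2 ratio of 1.88 (1.63 to 2.14). MIS18A and OIP5, subunits of the Mis18 complex that licenses the centromere for new CENP-A, were flatter. MIS18A had 57.2 CPM (56.1 to 58.4) in CHLA9 beside 89.5 CPM (87.1 to 92.0) in TC71, for a log2 line ratio of -0.65 (-0.69 to -0.60). Its late-cycle ratio was 0.77 in CHLA9 and 0.38 in TC71, and that of OIP5 was 0.96 and 0.37.

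The 13 inner kinetochore genes encode the constitutive centromere-associated network. CENPC, which links CENP-A nucleosomes to the outer layer, had 57.6 CPM (56.4 to 58.7) in CHLA9 beside 31.1 CPM (29.7 to 32.6) in TC71, for a log2 line ratio of 0.89 (0.81 to 0.96). CENPN, which reads the CENP-A nucleosome together with CENPL, went the other way, with 38.5 CPM (37.6 to 39.5) in CHLA9 beside 72.0 CPM (69.8 to 74.2) in TC71, for a log2 line ratio of -0.90 (-0.96 to -0.85). CENPL itself did not pass 1.5-fold, with 38.2 and 30.1 CPM.

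In the CENP-O/P/Q/U complex, CENPO had 41.3 CPM (40.4 to 42.3) in CHLA9 beside 21.6 CPM (20.5 to 22.9) in TC71, for a log2 line ratio of 0.93 (0.85 to 1.02). CENPQ had 12.1 CPM (11.5 to 12.6) and 24.5 CPM (23.2 to 25.8), a log2 ratio of -1.02 (-1.12 to -0.92) and the largest difference toward TC71 among the members. The partners CENPP and CENPU had log2 ratios of 0.53 and 0.40 and did not pass 1.5-fold.

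In the complex of CENPH, CENPI, CENPK and CENPM, CENPM passed, with 99.0 CPM (97.5 to 100.5) in CHLA9 beside 60.3 CPM (58.3 to 62.3) in TC71, for a log2 line ratio of 0.72 (0.66 to 0.77). CENPH, with 98.4 and 80.3 CPM, CENPI, with 14.4 and 10.7 CPM, and CENPK, with 66.0 and 80.7 CPM, did not. CENPW, a histone-fold partner of CENPT, was the most abundant inner gene, with 129 CPM (127 to 131) in CHLA9 beside 209 CPM (206 to 213) in TC71, for a log2 line ratio of -0.70 (-0.73 to -0.67). CENPT had 11.8 and 13.2 CPM.

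Along the cycle the inner genes spread widely. CENPI rose from 4.23 to 20.0 CPM between low-cycle and late-cycle cells of CHLA9 and from 6.64 to 15.2 CPM in TC71, log2 ratios of 2.24 and 1.19. CENPL had 1.75 and 0.72. In contrast, CENPH had 92.0 and 100.7 CPM in CHLA9 and 82.8 and 76.0 CPM in TC71. CENPU had 41.7 CPM in low-cycle cells of CHLA9, 103 CPM in cells high in replication alone, 111 CPM in cells high in both scores and 61.1 CPM in cells high in the G2 and mitosis score alone, so its maximum preceded that of CENPI. In TC71 the same order was 54.0, 66.6, 74.2 and 50.6 CPM. CENPQ likewise peaked with replication, at 15.5 CPM in CHLA9 and 28.2 CPM in TC71, beside 10.3 and 23.3 CPM in cells high in the G2 and mitosis score alone.

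Of the 13, 9 passed for late-cycle cells in CHLA9 and 3 in TC71, namely CENPC, CENPI and CENPL. Pearson's r of each inner gene with the sum of the other members over the 20 bins, which share a library, ran down to -0.10 in CHLA9 (CENPQ) and to -0.75 in TC71 (CENPM), with medians of 0.59 and 0.32. These are descriptions over bins of 1 library, with a sum in which abundant members such as CENPF weigh most.

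The 8 outer kinetochore genes are described by complex. The Ndc80 complex, the main microtubule coupler, is made of NDC80, NUF2, SPC24 and SPC25. NUF2 had 132 CPM (131 to 134) in CHLA9 and 109 CPM (107 to 112) in TC71, and NDC80 had 87.9 and 70.6 CPM. SPC24 differed most between the lines among outer genes, with 57.4 CPM (56.3 to 58.5) in CHLA9 beside 23.9 CPM (22.6 to 25.1) in TC71, for a log2 line ratio of 1.27 (1.18 to 1.35). SPC25, its direct partner, had 50.3 and 59.2 CPM, a log2 ratio of -0.24, and did not pass 1.5-fold.

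NDC80 went from 13.6 CPM in low-cycle to 154 CPM in late-cycle cells of CHLA9 and from 38.3 to 118 CPM in TC71, log2 ratios of 3.50 (3.36 to 3.65) and 1.62 (1.46 to 1.79). NUF2 had 34.7 and 233 CPM in CHLA9 and 75.8 and 163 CPM in TC71, and SPC25 had 11.3 and 72.0 CPM and 43.6 and 81.3 CPM. SPC24 rose from 23.4 to 75.8 CPM in CHLA9, while in TC71 it had 22.1 and 25.5 CPM, a log2 ratio of 0.21 (-0.03 to 0.45). Thus all 4 subunits passed in CHLA9 and 3 in TC71.

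Of the Mis12 complex, which joins the inner layer to the Ndc80 complex, 3 subunits are members, and none passed for late-cycle cells. DSN1 had 29.2 and 32.8 CPM in low-cycle and late-cycle cells of CHLA9 and 24.9 and 24.9 CPM in TC71. NSL1 had 73.1 and 82.4 CPM in CHLA9 and 79.1 and 77.6 CPM in TC71. PMF1 had 128 and 148 CPM in CHLA9 and 57.8 and 56.8 CPM in TC71. The remaining subunit MIS12, which is not a member, did not pass either, with 0.11 in CHLA9 and 0.34 (0.04 to 0.65) in TC71. The log2 ratios of the 3 members lay between 0.17 and 0.21 in CHLA9 and between -0.03 and 0.00 in TC71, against 1.70 to 3.50 and 0.21 to 1.62 for the Ndc80 subunits. In TC71 MIS12 lay above the lowest Ndc80 subunit, SPC24, so with MIS12 the complexes overlapped there. DSN1 was not flat across the whole cycle, since it reached 59.0 CPM in replication-high cells of CHLA9 and 35.8 CPM in those of TC71.

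PMF1 had 134 CPM (132 to 135) in CHLA9 beside 55.9 CPM (54.0 to 57.8) in TC71, for a log2 line ratio of 1.26 (1.21 to 1.31). It shares its strand and exons with the read-through gene PMF1-BGLAP, so its count is uncertain. ZWINT, a KNL1 partner needed for recruiting the corona, was the most abundant outer gene, with 167 CPM (165 to 169) and 118 CPM (116 to 121). Its late-cycle ratio was 1.13 in CHLA9 and 0.13 in TC71.

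Inner and outer layers were compared by medians over their members. The median log2 ratio between the lines was 0.34 for the inner and 0.41 for the outer genes. For late-cycle over low-cycle cells it was 0.66 for the inner and 1.42 for the outer genes of CHLA9, and 0.15 and 0.17 in TC71. The outer median was above the inner by at least 0.67 in CHLA9 under each of the 8 alternatives that could move this difference, and by -0.05 to 0.15 in TC71, where the order of the layers therefore depended on the setting. Since the outer group of CHLA9 joins Ndc80 genes with high and Mis12 genes with low ratios, its median describes neither.

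The Ska complex stabilizes microtubule attachment. SKA2 was its most abundant gene, with 261 CPM (258 to 263) in CHLA9 and 188 CPM (185 to 192) in TC71, followed by SKA3 with 65.5 CPM (64.3 to 66.7) and 70.7 CPM (68.6 to 72.9). SKA2, with the largest line ratio of the 3 at 0.47, varied little over the cycle, with log2 late-cycle ratios of 0.34 and 0.07. SKA1 went from 5.82 to 27.7 CPM in CHLA9 and from 13.98 to 20.7 CPM in TC71, log2 ratios of 2.25 (2.03 to 2.48) and 0.56 (0.27 to 0.86). SKA3 had 1.88 and 0.34. So 2 of the 3 passed in CHLA9 and none in TC71.

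CENPF, a corona protein and marker of G2, was the most abundant of all members, with 1314 CPM (1308 to 1319) in CHLA9 beside 548 CPM (542 to 554) in TC71, for a log2 line ratio of 1.26 (1.24 to 1.28). The gene lies at chr1:214603185-214664574. It rose from 591 to 2279.5 CPM in late-cycle cells of CHLA9 and from 321 to 857 CPM in TC71, log2 ratios of 1.95 and 1.42. CENPE, the kinesin that carries chromosomes toward the spindle equator, had 183 CPM (181 to 185) and 253 CPM (249 to 257) in the lines. Its late-cycle ratios were 2.62 and 1.46.

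Among checkpoint genes, the kinase gene BUB1 rose from 30.5 to 136 CPM in CHLA9 and from 48.8 to 136 CPM in TC71. BUB1B, which encodes the anaphase inhibitor BubR1, rose from 24.4 to 167 CPM and from 80.8 to 189 CPM. Its locus overlaps PAK6 and the read-through gene BUB1B-PAK6, and its count is uncertain to that extent. BUB3, their common partner, rose from 107 to 263 CPM in CHLA9 and from 140.5 to 236 CPM in TC71. MAD2L1, the inhibitor of CDC20, had log2 ratios of 1.22 in CHLA9 and 0.23 in TC71. ZWILCH and ZW10, subunits of the complex that brings dynein to the corona, were flatter, with log2 ratios of 0.26 and 0.49 in CHLA9 and 0.16 and 0.31 in TC71; ZW10 overlaps an unnamed gene on its strand. In all, 6 of the 8 passed in CHLA9 and 5 in TC71.

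The passenger complex, which destabilizes wrong attachments, had the highest median late-cycle ratio of the role groups, 3.05 in CHLA9 and 1.52 in TC71. AURKB, its kinase, had 112 CPM (111 to 114) in CHLA9 beside 57.6 CPM (55.7 to 59.6) in TC71, for a log2 line ratio of 0.97 (0.91 to 1.02). CDCA8, or borealin, went from 8.03 to 139 CPM in CHLA9 and from 26.9 to 93.0 CPM in TC71, log2 ratios of 4.12 (3.93 to 4.31) and 1.79 (1.59 to 1.99). The scaffold gene INCENP had 2.89 and 1.90, and AURKB 3.21 and 1.25.

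BIRC5, or survivin, was the most abundant gene of this complex and the least cyclic. It had 280.3 CPM (278 to 283) in CHLA9 and 337 CPM (332 to 341) in TC71. It went from 224 CPM in low-cycle to 415 CPM in late-cycle cells of CHLA9 and from 291 to 399 CPM in TC71, log2 ratios of 0.89 (0.85 to 0.93) and 0.45 (0.39 to 0.52). In replication-high cells of CHLA9 it was lower than in low-cycle cells, at 159 CPM.

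Timing within G2 and mitosis was read by ordering the late-cycle cells by the mitosis score minus the G2 score and splitting them into 4 steps of equal cell number and comparing the last step with the first. A gene counted as late or early where these steps differed at least 1.5-fold beyond counting error. The order separated genes outside the scores only weakly in CHLA9 and hardly in TC71. The median log2 ratio of last over first step was -0.11 for 5 G2 and 0.10 for 5 mitosis check genes in CHLA9, and -0.10 and -0.04 in TC71. Some check genes went with their list, such as the G2 gene CDCA2 with -0.50 in CHLA9 and -0.57 in TC71. Others went against it beyond counting error, such as the G2 gene HMGB1 in CHLA9, with 0.16 (0.15 to 0.18). The mitosis gene ASPM did so in TC71, with -0.29 (-0.37 to -0.22). Median UMIs per cell also fell along the order, from 44567 to 31841 in CHLA9 and from 41025 to 32811 in TC71, and the part of depth in the order was not tested.

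By this order 1 member was late in CHLA9, where 2.71% of all tested genes were, and 0 in TC71, where 1.69% were. There were 6 early members in CHLA9 (5.11% of all tested genes) and 2 in TC71 (3.91%). The early counts depended on the setting. With only the even genes of the score lists they were 2 in CHLA9 and 0 in TC71. With another seed for the thinning 4 were early in TC71, and ordering by the angle raised the count in both lines. No member was late in both lines (0.271% of all tested genes), and 2 were early in both (0.897%). Over all members the median log2 ratio of last over first step was -0.19 in CHLA9 and -0.06 in TC71, beside 0.00 and -0.04 over all tested genes. Most members thus passed in neither direction.

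HJURP was early in both lines. It fell from 93.9 CPM (89.6 to 98.3) in the first step to 44.7 CPM (41.4 to 48.2) in the last in CHLA9 and from 84.0 CPM (77.0 to 91.4) to 40.8 CPM (35.7 to 46.5) in TC71, log2 ratios of -1.07 and -1.04. CENPC, at chr4:67468762-67545503, was the other, from 84.3 CPM (80.3 to 88.5) to 46.6 CPM (43.3 to 50.2) and from 43.5 CPM (38.5 to 48.9) to 28.2 CPM (24.0 to 33.0), log2 ratios of -0.85 and -0.62. When only the even genes of the score lists set the order, no member was early in TC71, where HJURP had -0.45 and CENPC -0.26. CENPC in TC71 also lost its call when cells were ordered by the angle (-0.26) or split into 3 steps (-0.58). CENPA, the cargo of HJURP, had log2 ratios of -0.07 and 0.01 over the same steps.

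The other early members of CHLA9 were CENPL (-0.85), CENPU (-0.76), DSN1 (-0.76) and CENPK (-0.63), which were named after their values were seen. Of these, CENPU, DSN1 and CENPK also had their highest bin before the late-cycle cells in both lines. CENPL, CENPU, DSN1 and CENPK all stayed under a fold of 2. With the even score genes only 2 members in all were early in CHLA9. BIRC5 was the late member, from 320.2 to 490.1 CPM in CHLA9, a log2 ratio of 0.61 (0.57 to 0.66), and it had 0.33 (0.25 to 0.41) in TC71. The call lay close to the limit and was lost under 8 of the alternatives. The median over steps was -0.34 for inner and -0.23 for outer genes in CHLA9, and 0.03 and -0.06 in TC71, where the inner median was below 0 under 7 alternatives.

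**Figure D5:**
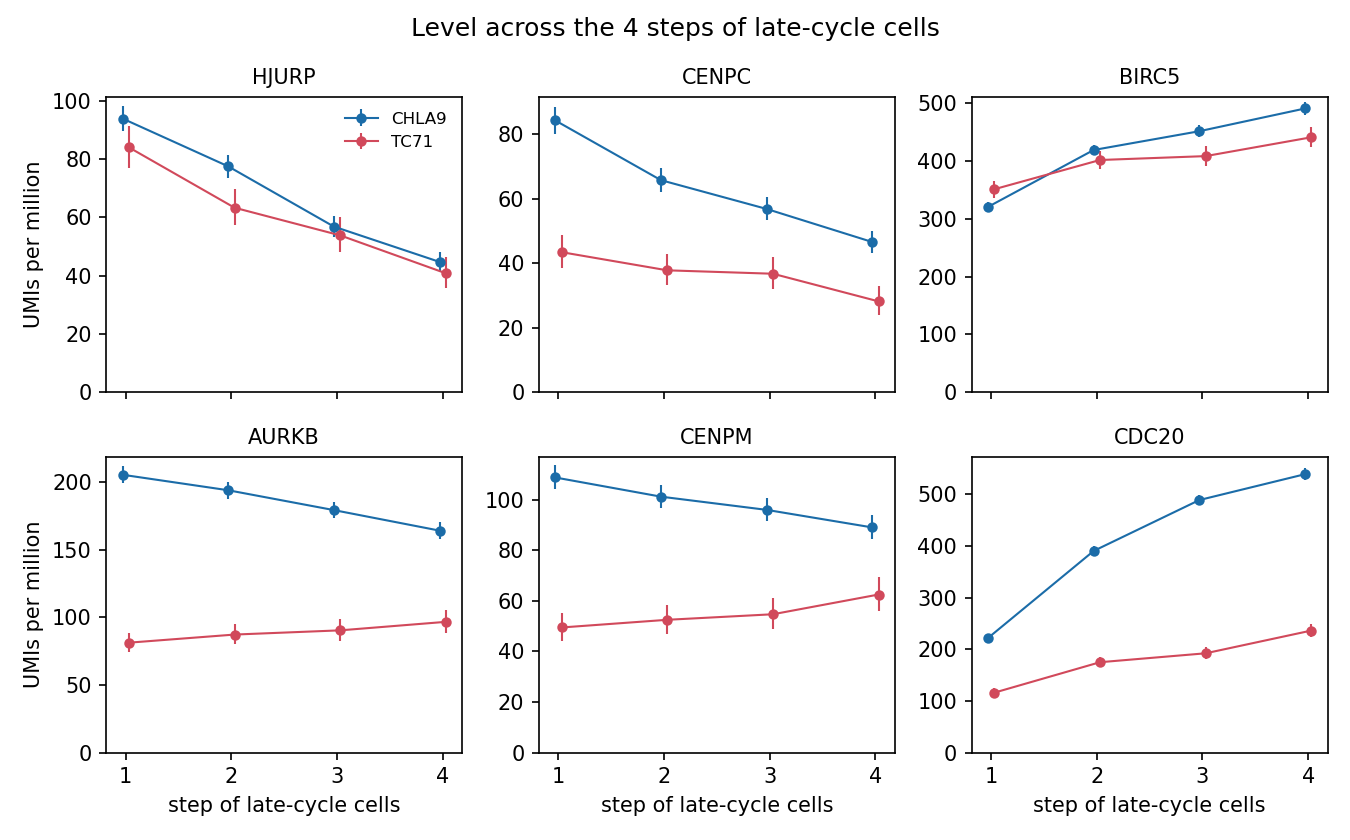
Level in the 4 steps of late-cycle cells, in order of the mitosis minus the G2 score, for 5 members and CDC20, in CPM with 95% Poisson intervals; blue is CHLA9 and red TC71. HJURP and CENPC fall in both lines, CDC20 rises in both, and AURKB and CENPM run in opposite directions in the lines.

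A list of 23 other genes of the pathway, which were not members, was read in the same way. Of them 15 passed for late-cycle cells in CHLA9 and 11 in TC71, and the same 11 in both. The shares of all tested genes were 6.25%, 5.88% and 2.27%. The median log2 ratios of the 23 were 1.504 in CHLA9 and 0.58 in TC71. Between the lines, 7 of the 23 were higher in CHLA9 and 0 in TC71, beside 32.4% and 19.2% of all tested genes. Late in both lines was CDC20, the anaphase activator held by the checkpoint. It rose from 222 CPM (215 to 228.5) in the first step to 539 CPM (527 to 551) in the last in CHLA9, and from 116 CPM (108 to 125) to 236 CPM (224 to 249) in TC71, log2 ratios of 1.28 and 1.03. No member had a rise of this size across the steps. When cells were ordered by the angle instead, CDC20 had 0.72 in CHLA9 and 0.19 in TC71, so the call in TC71 was lost.

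Genes outside all lists were compared with the summed members over the 20 bins, among 5225 genes with at least 20 CPM in both lines. The 5 most alike by Pearson's r, as a mean of the lines, were ARHGEF39 (0.989 in CHLA9 and 0.986 in TC71), DEPDC1B (0.992 and 0.980), ECT2 (0.995 and 0.977), PRC1 (0.990 and 0.970) and KIF18A (0.979 and 0.978). ECT2 activates RhoA for cytokinesis, PRC1 bundles microtubules of the central spindle, and KIF18A is a kinesin that dampens chromosome movements. The bins of a line share its library, and the r is a description of likeness. The sum weights members by level, and CENPF was the most abundant of them.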

How the data were processed

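CHLA9 and TC71, lines of Ewing sarcoma, were measured by droplet 3′ RNA sequencing, 1 library per line. The deposited count matrices hold UMI counts per gene and barcode, which the authors made with Cell Ranger 3.1.0 on hg38 according to their processing notes. Depth was 178489774 UMIs in CHLA9 and 75408445 in TC71, and intervals carry counting error only. Barcodes were kept from 5000 UMIs and 2000 genes upward with no more than 15% MT- UMIs, without removal of doublets. Counts were summed over cells and given as CPM, with exact Poisson intervals and exact conditional binomial intervals of ratios. A gene was called at 1.5-fold with an interval that left out 1. Cells were thinned to 10000 UMIs (seed 1) and scored on 40 replication, 25 G2 and 25 mitosis genes without members, then placed on an angle, in 20 bins of equal cell number, and, for late-cycle cells (45 to 180 degrees), in 4 steps by the mitosis minus the G2 score. A rule in the code picked genes to name by level, line ratio and timing, and other members named with values were chosen after their values were seen. The gene list and the score lists were chosen with earlier results of these data known. Motifs were searched in RefSeq promoters of GRCh38.p14, and coordinates and overlaps were taken from GENCODE 44. Alternatives covered cell filters, thinning, seed, score, score genes, order, groups, CPM base, minimum level and fold. Calculations used Python 3.11.15, numpy 2.4.6, scipy 1.17.1, pandas 2.3.3 and matplotlib 3.10.9, and the code was tested on simulated data. No test was made, since no line has a replicate, and the xenografts and the remaining line were left out because the gene group was set for these lines.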

Additional observations from a re-analysis of the deposited data

Results flagged for a closer look

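CENPM, an inner kinetochore gene, had ratios on opposite sides of 0 in the lines. Its log2 ratio of late-cycle over low-cycle cells was 0.54 (0.47 to 0.61) in CHLA9 and -0.30 (-0.44 to -0.15) in TC71, a difference of 0.83. From the first to the last of 4 steps of late-cycle cells it had -0.29 (-0.39 to -0.19) in CHLA9 and 0.34 (0.11 to 0.56) in TC71, a difference of -0.63. AURKB, the passenger complex kinase, had -0.32 (-0.40 to -0.25) in CHLA9 and 0.25 (0.07 to 0.43) in TC71 from the first to the last step, a difference of -0.57. None of these ratios reached 1.5-fold in either line, and the order of the steps separated the check genes only weakly in CHLA9 and hardly in TC71. The differences have no replicate, and their cause was not tested.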

How the results depend on the processing

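A paired analysis was not possible, as there is 1 library of each line. Of the values compared over 15 settings, 210 of the leading results stayed as they were, 36 moved, and 234 of the others stayed and 57 moved. Of the single genes compared, none with a call turned to the opposite direction. The count of members late in CHLA9 went from 1 to 0 with at most 10% MT- UMIs, a fold of 2, thinning to 5000 UMIs, the share of UMIs as score, odd score genes, even score genes, ordering by the angle, and 3 steps. The count of members early in TC71 went from 2 to 4 with at most 10% MT- UMIs, seed 2, the share of UMIs, odd score genes and the angle, to 1 with a fold of 2 and with 3 steps, and to 0 with even score genes. In CHLA9 the early count went from 6 to 15 with the angle, 2 with even score genes and 1 with a fold of 2. Early in both lines went from 2 to 1 with a fold of 2 and 3 steps, to 0 with even score genes, and to 3 under 7 other alternatives. A fold of 2 left 3 members higher in CHLA9 and 1 in TC71, as fewer genes can reach it. The inner median of late-cycle over low-cycle cells in TC71 was 0.26 with at most 10% MT- UMIs, and the outer median was 0.32 there, 0.32 with seed 2 and 0.27 with even score genes. The outer median of CHLA9 was 1.31 with odd score genes. The median over steps of TC71 for inner genes turned from 0.03 to below 0 under 7 alternatives, where it was -0.11 with thinning to 5000 UMIs, -0.15 with seed 2 and -0.10 with odd score genes, and closer to 0 under the other 4. For outer genes it was -0.17 with thinning to 5000 UMIs, and the outer median, below the inner one, was above it with seed 2. In CHLA9 that of inner genes was -0.21 with even score genes and -0.47 with the angle, where that of outer genes was -0.45. Apart from the fold, the cause was not tested. A minimum of 10000 UMIs per cell, chosen after seeing the data, moved no leading line result, and could not move the cycle results, for which shallower cells were already left out. Leaving out the minimum CPM could not move any member, as all passed it, and CPM without MT- genes rescales all genes alike. The values that stayed include those that could not move under these settings. Among those that moved, the line ratio of CENPF went from 1.26 to 1.24 with CPM without MT- genes. All tested genes higher in TC71 went from 2484 to 3890 without the minimum CPM. Depth limits the bins and steps of TC71 more, where fewer cells were kept.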
